A study of Homo sapiens with 12 samples.

Results

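The transcripts described here encode nuclear subunits of the oxidative phosphorylation system. They are the transcripts whose name in the deposited gene names starts with NDUFA, NDUFB, NDUFC, NDUFS, NDUFV, UQCR, COX4, COX5, COX6, COX7, COX8 or ATP5, together with CYC1 and CYCS, and without the NDUFAF assembly factors. The rule gave 78 of the 19972 transcripts counted, and 10872 of these carried a name. Complex I had 37 members, of which 7 were core subunits, those with counterparts in the bacterial enzyme, and 30 were accessory subunits. Complex III had 9 members, complex IV 12, complex V 19, and cytochrome c was represented by CYCS. The rule also took NDUFAB1, the mitochondrial acyl carrier protein, COX7A2L, a factor of respiratory supercomplexes, ATP5IF1, the inhibitor of the ATP synthase, and ATP5MF-PTCD1, a readthrough transcript of a pair of neighbouring genes. NDUFA4 was counted with complex IV.

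The respiratory chain carries electrons from NADH through complexes I, III and IV to oxygen and pumps protons across the inner mitochondrial membrane, and complex V, the ATP synthase, uses the proton gradient to make ATP. Complexes I, III, IV and V combine subunits encoded in the nucleus with a few encoded in mitochondrial DNA, so cytosolic and mitochondrial translation both contribute to each complex. Neurons depend strongly on this system, because firing and synaptic transmission consume much ATP.

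The cells were human induced neurons made from H1 embryonic stem cells by overexpression of the transcription factor Ngn2. They carried either the Nterm allele of LLPH on both chromosomes (Nterm/Nterm) or the wild-type gene (wt/wt), and the labels do not say what the Nterm allele changes. Both genotypes were grown without added glia to day 14, in medium with 2 µg/mL doxycycline and 4 µM cytosine arabinoside (a drug against dividing cells) exchanged on days 5 and 10, and were harvested in cycloheximide at 100 µg/mL. Each genotype had 3 libraries of polyA RNA and 3 Ribo-seq libraries of footprints, the mRNA pieces that ribosomes protect from nuclease. Separate cultures or clones are not named for the replicates, so a p-value here speaks of the spread among these libraries, which may be technical.

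The footprint libraries held 12652833 to 15177310 counts in Nterm/Nterm and 13155130 to 16356419 in wt/wt, and the RNA libraries 18944427 to 21478215 in Nterm/Nterm and 21834425 to 25089790 in wt/wt. LLPH itself had 39, 22 and 36 footprint counts in Nterm/Nterm libraries, against 88, 135 and 98 in wt/wt libraries, and 611, 603 and 630 RNA counts in Nterm/Nterm, against 676, 627 and 687 in wt/wt. Its footprints were lower in Nterm/Nterm (log2 change -1.60 ± 0.19, SE, edgeR adjusted p = 1.77e-05), and its RNA change did not pass the test (0.14 ± 0.06, adjusted p = 0.135). Genotypes follow the sample titles and the column names. The genotype tag of the Ribo-seq samples names the opposite genotype, and every direction given for footprints or for the ratio rests on the titles.

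Translation of the members relative to their mRNA is described by the ratio of footprint CPM to RNA CPM, where CPM are counts scaled to library size within each assay. This ratio sets a transcript against itself, and its scale is relative, with a median over all transcripts of 1.11 in wt/wt. Each footprint library was divided by the RNA library of the same number, although those numbers were not taken as pairs. The SD of a ratio, and whether the ratios of the genotypes overlap, therefore depend on the numbering. Genes can also differ in it through the share of the transcript that is coding, and the part of that share in the ratios was not tested. The members had a median ratio of 2.04 in Nterm/Nterm and 1.87 in wt/wt, against medians over all transcripts of 1.12 in Nterm/Nterm and 1.11 in wt/wt. In wt/wt, 62 of the 78 members (79.5%) lay above the median of all transcripts and 49 lay above its upper quartile of 1.65. The median over the members was 1.99, 2.07 and 2.02 for same-numbered Nterm/Nterm libraries, and 1.86, 1.79 and 1.98 for those of wt/wt. The Nterm/Nterm and wt/wt medians did not overlap, and they stayed well above 1.11 in each.

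Complex I had the highest median ratio of the complexes, at 2.32 in Nterm/Nterm and 2.18 in wt/wt. Its 7 core subunits, which bind the flavin and the iron-sulfur clusters or form the quinone site, had a median of 2.42 in Nterm/Nterm and 2.31 in wt/wt, and each lay above the median of all transcripts. The 30 accessory subunits had a median of 2.14 in Nterm/Nterm and 2.07 in wt/wt. Complex V had a median of 2.08 in Nterm/Nterm and 1.87 in wt/wt, complex III 1.83 in Nterm/Nterm and 1.76 in wt/wt, and complex IV 1.79 in Nterm/Nterm and 1.60 in wt/wt. CYCS, the mobile carrier between complexes III and IV, had a ratio of 0.979 ± 0.058 in Nterm/Nterm and 0.950 ± 0.053 in wt/wt (SD, n = 3), below the median of all transcripts.

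**Figure D1:**
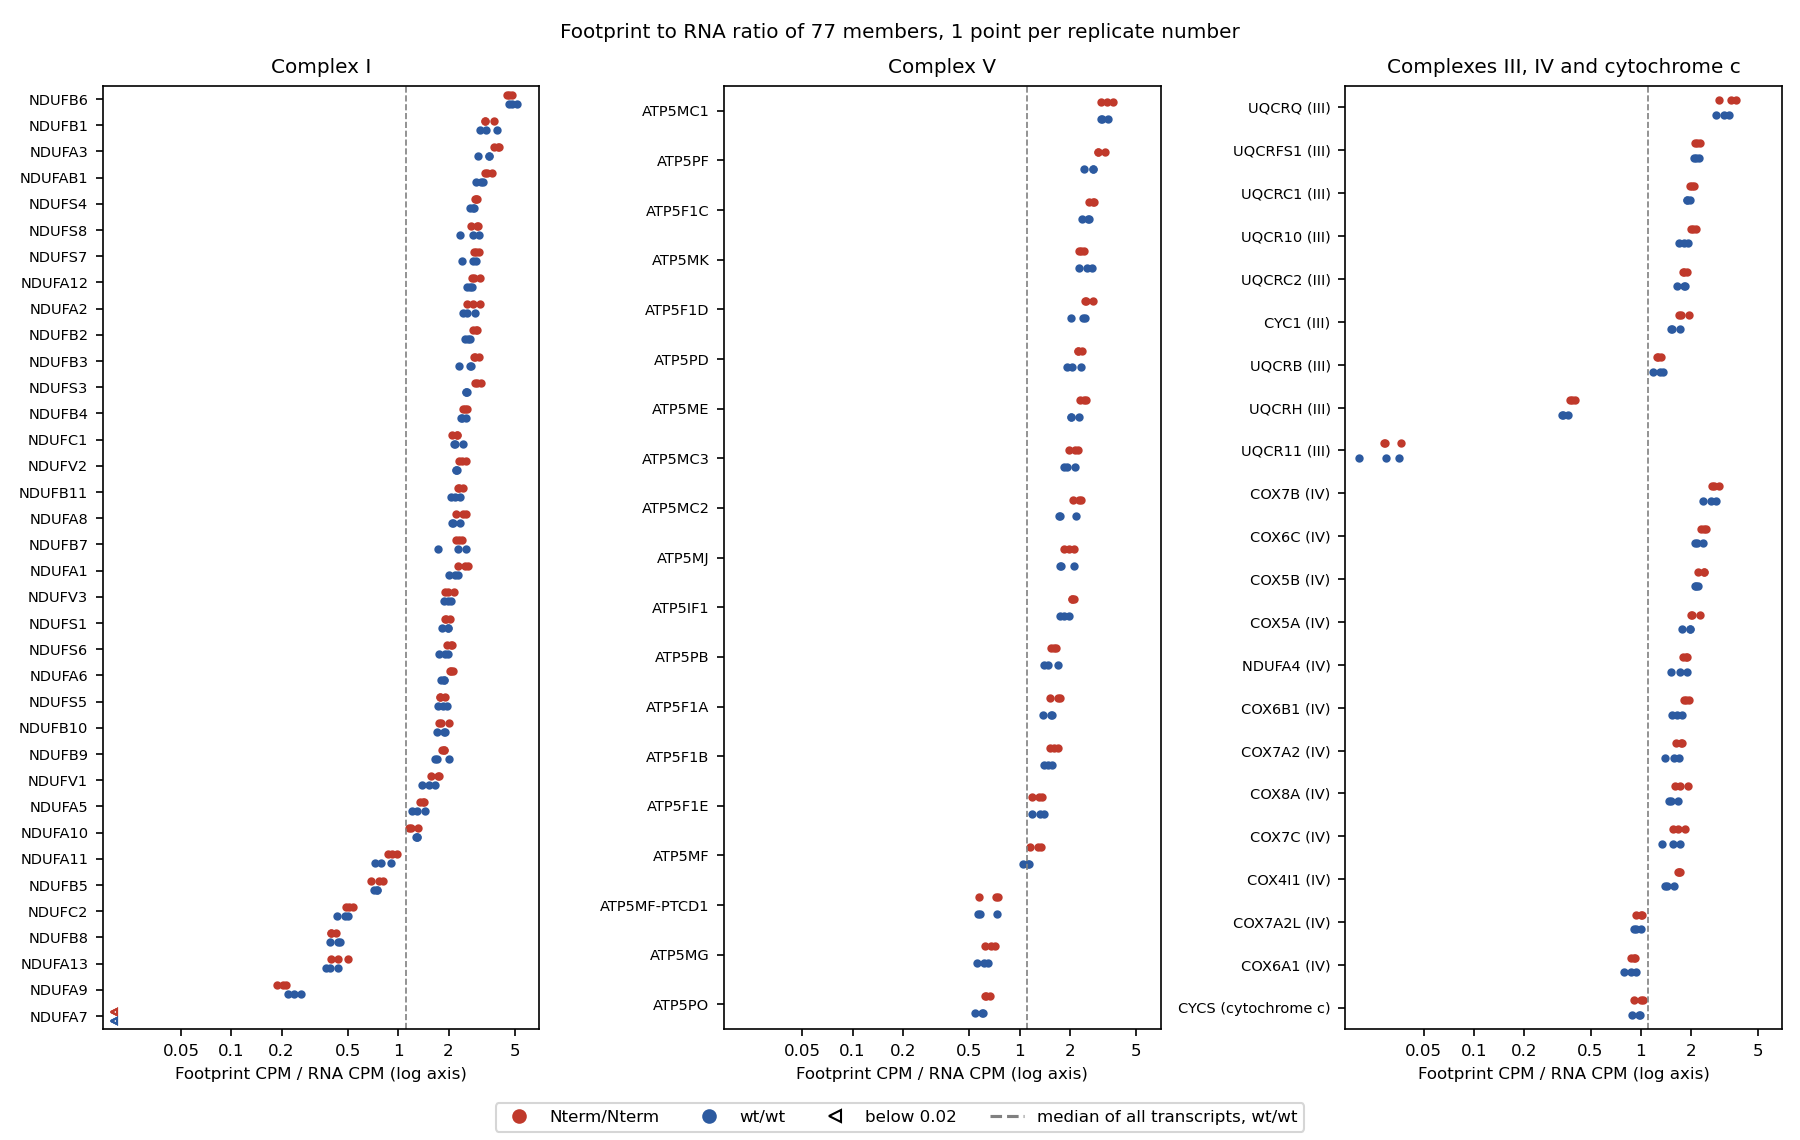
Ratio of footprint CPM to RNA CPM for 77 of the 78 members, on a log axis, with 1 point for each replicate number of Nterm/Nterm (red) and wt/wt (blue); the dashed line is the median of all transcripts in wt/wt, 1.11. Most members lie between 1.11 and 5, and NDUFA7, UQCR11, NDUFA9 and UQCRH lie far to the left in both genotypes.

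The members with the highest ratio in wt/wt were 3 small accessory subunits of complex I and 1 gene of the ATP synthase rotor. NDUFB6, in the membrane arm of complex I, had ratios of 4.61, 4.81 and 4.51 in Nterm/Nterm and 5.13, 4.81 and 4.58 in wt/wt. NDUFB1, also in the membrane arm, had 3.31, 3.72 and 3.33 in Nterm/Nterm and 3.93, 3.10 and 3.34 in wt/wt. NDUFA3 had 4.03, 3.95 and 3.76 in Nterm/Nterm and 3.01, 3.50 and 3.52 in wt/wt. The genotypes overlapped for NDUFB6 and NDUFB1, and all 3 Nterm/Nterm values of NDUFA3 lay above those of wt/wt. ATP5MC1, which encodes the subunit c that forms the rotor ring, had 3.65, 3.33 and 3.07 in Nterm/Nterm and 3.09, 3.39 and 3.11 in wt/wt, and its genotypes overlapped.

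A set of 10 members was below the lower quartile of all transcripts, 0.667, in wt/wt. NDUFA7, an accessory subunit of the matrix arm of complex I, had 0, 0 and 1 footprint counts in Nterm/Nterm and 1, 1 and 0 in wt/wt, beside 261, 182 and 235 RNA counts in Nterm/Nterm and 506, 350 and 366 in wt/wt. Both genotypes were at or under 3 footprint counts in all, so no change of its translation can be read. UQCR11, a small subunit of complex III, had 38, 27 and 35 footprint counts in Nterm/Nterm and 30, 44 and 23 in wt/wt, beside 1640, 1378 and 1669 RNA counts in Nterm/Nterm and 1918, 1591 and 2023 in wt/wt. Its ratio was thus 0.0318 ± 0.0043 in Nterm/Nterm and 0.0286 ± 0.0075 in wt/wt (SD, n = 3). Such values were uncommon in the whole table. Of 10508 transcripts with a wt/wt RNA mean of at least 10 CPM, 126 (1.2%) had a ratio under 0.01. A ratio under 0.05 was found for 249 of them (2.37%). Only NDUFA7 among the members lay under 0.01, and only NDUFA7 and UQCR11 under 0.05. Near-zero ratios were thus about as rare among the members as in the table.

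NDUFA9, an accessory subunit next to the quinone site of complex I, had ratios of 0.204, 0.213 and 0.187 in Nterm/Nterm and 0.260, 0.217 and 0.237 in wt/wt, with every Nterm/Nterm value below every wt/wt value. UQCRH, the hinge protein that helps cytochrome c dock on complex III, had 0.387, 0.403 and 0.375 in Nterm/Nterm and 0.342, 0.337 and 0.364 in wt/wt, with every Nterm/Nterm value above every wt/wt value. The other 6 were NDUFA13, NDUFB8 and NDUFC2 of complex I and ATP5PO, ATP5MG and ATP5MF-PTCD1 of complex V, with wt/wt means of 0.398 to 0.627. The sources do not say how a read matching several transcripts was assigned, or which part of a transcript was counted. Both bear on a ratio near 0 and on members with many pseudogenes or an overlapping transcript, such as CYCS, COX6C and the pair ATP5MF and ATP5MF-PTCD1.

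Members encoded by related genes did not share 1 ratio. Of the paralogs of subunit c, ATP5MC1 had a ratio of 3.35 ± 0.29 in Nterm/Nterm and 3.20 ± 0.17 in wt/wt, ATP5MC2 2.24 ± 0.13 in Nterm/Nterm and 1.88 ± 0.25 in wt/wt, and ATP5MC3 2.12 ± 0.13 in Nterm/Nterm and 1.97 ± 0.15 in wt/wt (SD, n = 3). These genes encode the same mature protein behind different import sequences, and in each genotype ATP5MC1 lay above the other two in all 3 replicates. COX7A2, a subunit of complex IV, had 1.71 ± 0.07 in Nterm/Nterm and 1.56 ± 0.15 in wt/wt, and COX7A2L had 0.984 ± 0.042 in Nterm/Nterm and 0.946 ± 0.047 in wt/wt (SD, n = 3). COX7A2 lay above COX7A2L in every replicate of both genotypes.

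Sequence at the start of the members' genes was read from RefSeq windows of assembly GRCh38.p14, from 250 bases before to 50 bases after each start, which matched 64 of the 78 members by symbol. The RNA was counted on transcripts of another build, GRCh37 per the submitters' processing notes, so a window can start at another isoform than the one counted. The 3 words searched, on both strands, were GCATGCGC for NRF1, a factor known for its sites at respiratory chain genes, CCGGAAG for GABP and other ETS factors, and AAGATGGCG, shared by the factor YY1 and the TISU element. TISU is a translation initiator element of very short leaders, in which the ATG is the start codon. NRF1's word was in 13 members (20.3%), against 3.68% of the 27305 genes with a window and 6.67% of the 8955 among them that are named transcripts here. The GABP word was in 19 members (29.7%), against 12.2% of all genes and 23.1% of named ones. AAGATGGCG was in 8 members (12.5%), against 2.14% of all genes and 5.08% of named ones. In all, 33 members held at least 1 of the words.

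**Figure D2:**
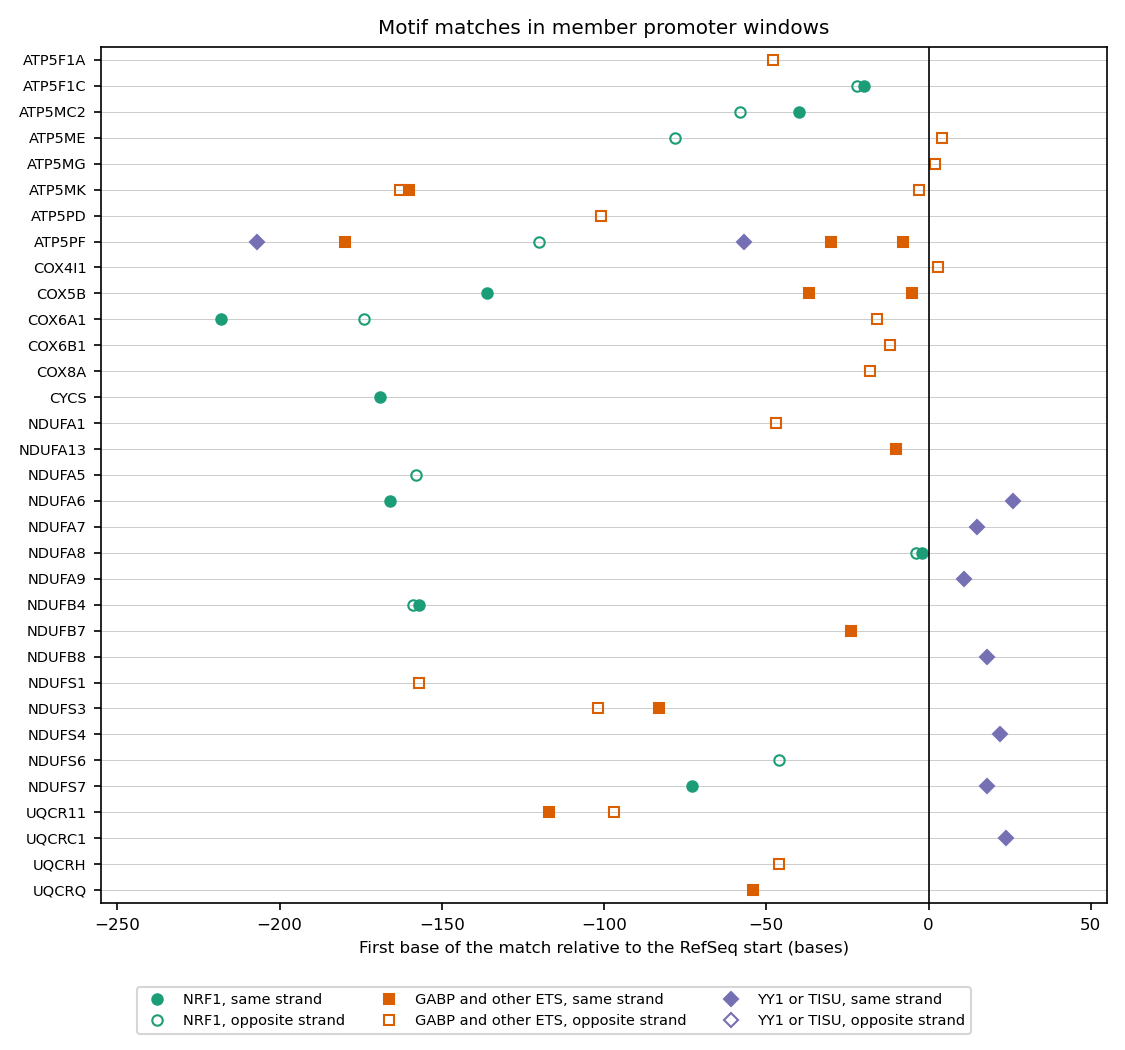
Position of each match in the 33 members with one, as the first base of the match relative to the RefSeq start; filled symbols mark the gene's own strand and open symbols the opposite strand. The AAGATGGCG matches of 7 members lie within 30 bases after the start, and those of ATP5PF lie before it.

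AAGATGGCG stood within 30 bases after the start, on the gene's strand, in 7 of the 8 members that held it (87.5%), against 312 of 583 among all genes (53.5%). The stretches of these 7 are shown because 3 of them, NDUFA7, NDUFA9 and NDUFB8, were among the 10 members with the lowest ratio, a link seen after the values were known and not tested. The other 4 had wt/wt ratios of 1.85 to 2.78, so the word did not go with a low ratio in every member. The median wt/wt ratio was 1.88 for the 8 members with the word and 1.92 for the 56 with a window and without it. The ratio of NDUFA7 rests on 0 or 1 footprint counts in each library. In the stretches, read 5′ to 3′ on the gene's strand in GRCh38.p14, the capitals mark AAGATGGCG.
NDUFA6, chr22:42090728-42090757, minus strand: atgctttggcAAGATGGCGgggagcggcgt
NDUFA7, chr19:8321342-8321371, minus strand: tcgcggacggAAGATGGCGtccgccacccg
NDUFA9, chr12:4649114-4649143, plus strand: attgtgggaaAAGATGGCGgctgccgcaca
NDUFB8, chr10:100529835-100529864, minus strand: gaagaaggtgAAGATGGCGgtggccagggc
NDUFS4, chr5:53560650-53560679, plus strand: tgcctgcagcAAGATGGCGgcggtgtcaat
NDUFS7, chr19:1383914-1383943, plus strand: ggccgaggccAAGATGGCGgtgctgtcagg
UQCRC1, chr3:48609604-48609633, minus strand: ctgcagctggAAGATGGCGgcgtccgtggt

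RNA levels of the members differed little between the genotypes. Of the 78 members, 1 was higher and 3 were lower in Nterm/Nterm (edgeR without a replicate block, adjusted p under 0.05). Of the 14659 transcripts tested, 7.25% were called higher and 10.6% lower. The fit with the replicate number as a block, given below, called 8 members. The median log2 change was -0.01, against 0.00 for all transcripts, and 75 members (96.2%) had a log2 change under 0.2 in size, against 68% of all transcripts. This share was 77.9% for the named transcripts and 94.9% for the mitochondrial ribosomal proteins. The members were also measured more precisely, with a median SE of 0.051, against 0.076 for all transcripts. By complex, the median RNA change was 0.00 for complex I, -0.02 for complex III, -0.02 for complex IV and 0.00 for complex V. The libraries of the genotypes did not overlap for 7 members higher and 9 members lower in Nterm/Nterm, where 17.1% of transcripts were separated upward and 19.1% downward. In these bulk cultures, fewer cells of a type and less RNA per cell cannot be told apart.

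NDUFA9 was the member called higher. Its RNA was 63.7, 71.6 and 72.3 CPM in Nterm/Nterm libraries and 54.5, 57.0 and 57.4 CPM in wt/wt libraries. Each Nterm/Nterm library lay above each wt/wt library, and the log2 change was 0.30 ± 0.06 (SE, edgeR adjusted p = 0.00528). Footprints of NDUFA9 overlapped, at 13.0, 15.2 and 13.6 CPM in Nterm/Nterm and 14.2, 12.4 and 13.6 CPM in wt/wt. Their change did not pass the test and had a wide error (log2 change 0.06 ± 0.11, SE, edgeR adjusted p = 0.787).

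The 3 members called lower were NDUFA7, NDUFB3 and ATP5MC2. NDUFA7 RNA was 13.2, 9.53 and 11.0 CPM in Nterm/Nterm and 20.4, 16.0 and 14.6 CPM in wt/wt, separated without overlap (log2 change -0.60 ± 0.14, adjusted p = 0.0124). NDUFB3, an accessory subunit of the membrane arm, had RNA of 26.4, 23.6 and 22.6 CPM in Nterm/Nterm and 29.6, 30.0 and 27.1 CPM in wt/wt (log2 change -0.26 ± 0.08, adjusted p = 0.0358). The RNA of NDUFB3 was separated between the genotypes, and its footprints overlapped, at 76.4, 66.5 and 68.7 CPM in Nterm/Nterm and 80.0, 69.7 and 74.1 CPM in wt/wt. ATP5MC2 RNA was 94.3, 88.2 and 90.3 CPM in Nterm/Nterm and 106, 104 and 99.5 CPM in wt/wt, also separated (log2 change -0.18 ± 0.05, adjusted p = 0.018). ATP5MC2 footprints overlapped, at 221, 201 and 188 CPM in Nterm/Nterm and 182, 182 and 216 CPM in wt/wt. The other genes of subunit c, ATP5MC1 and ATP5MC3, had RNA log2 changes of 0.07 ± 0.06 and -0.01 ± 0.04 that did not pass the test.

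In the fit without a replicate block, the lower calls depended on which wt/wt libraries were in it. Without wt/wt RNA replicate 1, NDUFA7 (log2 change -0.45, adjusted p = 0.0718), ATP5MC2 (-0.16, adjusted p = 0.104) and NDUFB3 (-0.24, adjusted p = 0.137) were not called by edgeR and 1 member was left. Without wt/wt RNA replicate 2, ATP5MC2 (-0.18, adjusted p = 0.0839) and NDUFB3 (-0.23, adjusted p = 0.143) were not called. Over all transcripts the calls numbered 841 without replicate 1 and 964 without replicate 2, against 2624 with all libraries. NDUFB3 also missed the threshold without Nterm/Nterm replicate 2 (0.0725) or 3 (0.104), and NDUFA9 was called in each of these fits. Same-numbered RNA libraries of the genotypes deviated together, and with the replicate number as a block edgeR called 8 members, 4 higher and 4 lower, where 14.3% of transcripts were called higher and 16.4% lower. With the block NDUFA9 (edgeR adjusted p = 1.87e-05), NDUFA7 (1.99e-05), ATP5MC2 (0.000678) and NDUFB3 (0.00455) kept their calls. Leaving out 1 library was not tried with the block. Among the members added with the block were NDUFB11 (adjusted p = 0.00354) and NDUFB9 (0.0101), both higher, and COX6B1 (0.0159), lower.

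**Figure D3:**
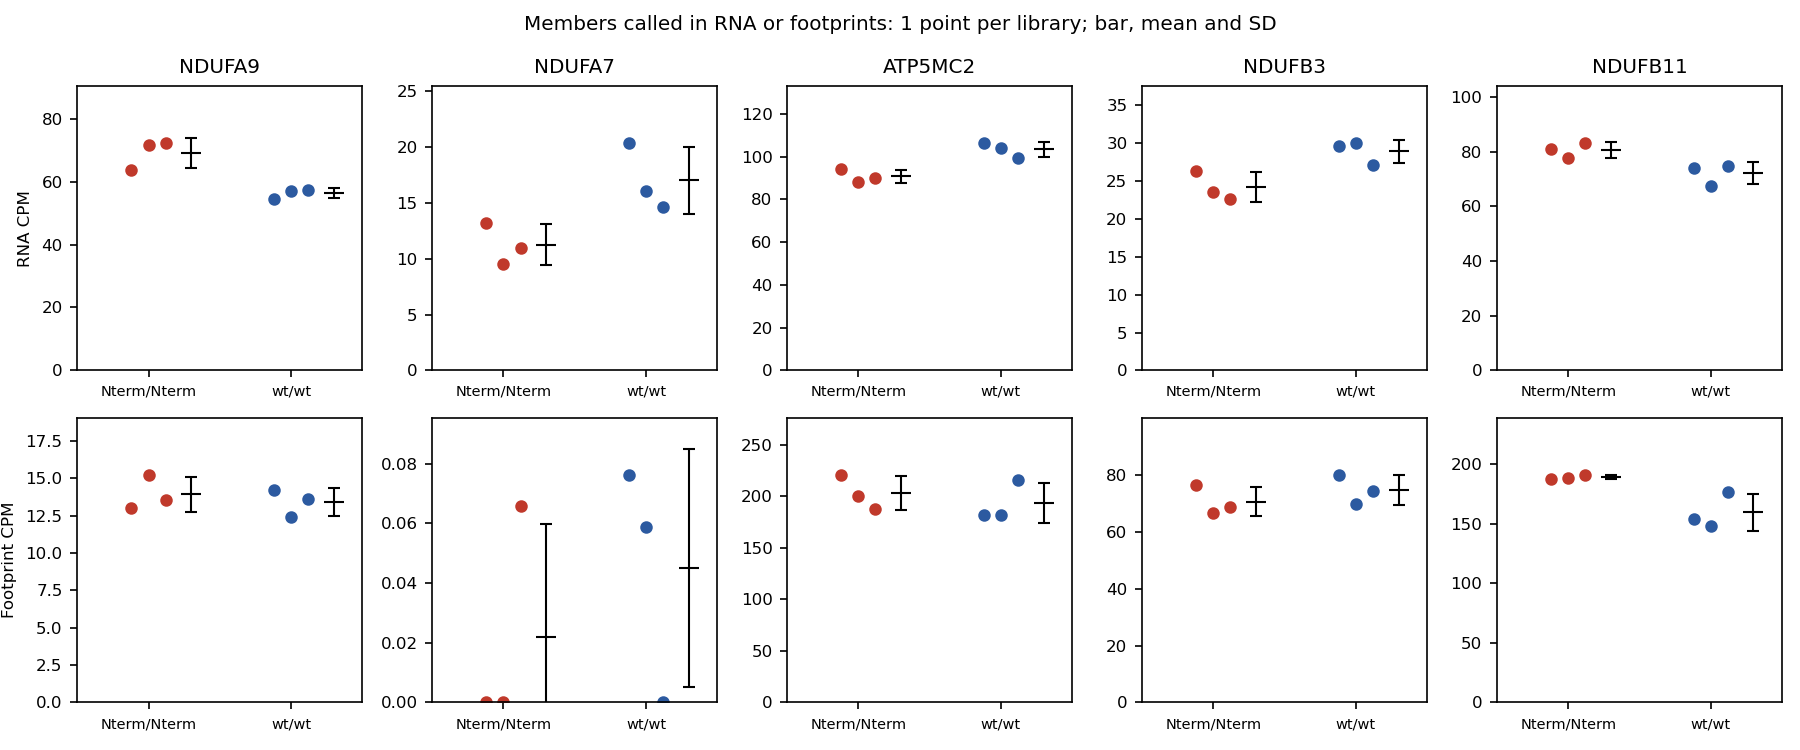
RNA CPM (upper row) and footprint CPM (lower row) of the 5 members called in either assay, with 1 point per library, the mean and the SD of 3 libraries; Nterm/Nterm is on the left of each panel and wt/wt on the right, and each axis starts at 0. NDUFA9 is separated upward and NDUFA7, ATP5MC2 and NDUFB3 downward in RNA, all 4 overlap in footprints, and NDUFB11 is separated upward in both rows.

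The promoter windows of the members called in RNA held different words. NDUFA7 and NDUFA9 held AAGATGGCG, ATP5MC2 held the NRF1 word, and NDUFB3 held none of the 3, which says only that these letters are not in its window. The window of ATP5MC2 with the word on the gene's strand, and a window of ATP5PF, the coupling subunit of the ATP synthase stalk and the member that held all 3 words, are shown 5′ to 3′ on the gene's strand in GRCh38.p14, with the words in capitals (GCGCATGC is the NRF1 word on the opposite strand).
ATP5MC2, chr12:53676034-53676333, minus strand: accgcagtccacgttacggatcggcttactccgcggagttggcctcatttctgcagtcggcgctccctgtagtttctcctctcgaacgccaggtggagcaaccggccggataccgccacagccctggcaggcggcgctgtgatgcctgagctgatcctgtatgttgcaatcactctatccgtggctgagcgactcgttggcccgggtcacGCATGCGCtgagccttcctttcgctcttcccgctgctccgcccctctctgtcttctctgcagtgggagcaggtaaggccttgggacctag
ATP5PF, chr21:25735005-25735304, minus strand: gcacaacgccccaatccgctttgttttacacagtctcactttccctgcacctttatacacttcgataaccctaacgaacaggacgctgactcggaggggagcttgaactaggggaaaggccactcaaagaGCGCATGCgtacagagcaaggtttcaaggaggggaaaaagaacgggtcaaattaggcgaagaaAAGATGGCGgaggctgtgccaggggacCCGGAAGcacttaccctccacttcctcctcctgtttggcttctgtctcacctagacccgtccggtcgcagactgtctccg
The 13 members with the NRF1 word had a median RNA change of -0.04 and the 51 members with a window and without the word had 0.00. For the GABP word the RNA medians were -0.01 with it and -0.01 without it, and for AAGATGGCG they were -0.06 with it and 0.00 without it.

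Footprint changes of the members lay mostly above 0, and 1 member passed the test. Of 77 members tested, NDUFA7 having been removed for low counts, 1 was called higher and 0 lower by edgeR, where 4.36% of the 13566 transcripts tested were called higher and 8.91% lower. DESeq2 and limma-voom also called 1 higher and 0 lower, and at an unadjusted edgeR p under 0.05 there were 13 members higher, beside 11.9% of all transcripts, and 0 lower. The median log2 change was 0.10, against 0.01 for all transcripts, and 70 members (90.9%) lay above 0, against 52.1% of all transcripts. The medians were alike across the complexes, at 0.09 for complex I, 0.08 for complex III, 0.11 for complex IV and 0.11 for complex V. Nterm/Nterm footprint libraries lay above all wt/wt libraries for 17 members and below them for 0, where 14.8% of transcripts were separated upward and 15.9% downward.

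NDUFB11, an accessory subunit of the membrane arm whose gene is on the X chromosome, was the member called. It had 188, 189 and 191 footprint CPM in Nterm/Nterm and 154, 148 and 177 in wt/wt, separated without overlap (log2 change 0.25 ± 0.07, adjusted p = 0.0265). Its RNA was 81.1, 77.6 and 83.3 CPM in Nterm/Nterm and 74.0, 67.4 and 74.9 in wt/wt, also separated, with a change of 0.16 ± 0.05 (adjusted p = 0.052) without the block. The call was lost on leaving out any of 5 of the 6 footprint libraries (adjusted p 0.054 to 0.141), all but wt/wt replicate 3. Without wt/wt footprint replicate 3 edgeR called 5 of 77 members, NDUFB11, NDUFB7, NDUFB9, NDUFA11 and COX8A, all higher, where 5.56% of all transcripts were called higher.

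Other members had changes of similar size that did not pass the test. NDUFB9 had a footprint change of 0.19 ± 0.07 (adjusted p = 0.0601), and NDUFA11, in the membrane arm of complex I, 0.20 ± 0.07 (adjusted p = 0.0859). ATP5F1B, the catalytic subunit of the ATP synthase, had 931, 954 and 891 footprint CPM in Nterm/Nterm and 823, 753 and 883 in wt/wt. ATP5F1A, its partner in the catalytic head, had 940, 936 and 889 in Nterm/Nterm and 846, 756 and 864 in wt/wt. Both were separated between the genotypes, with changes of 0.17 ± 0.08 (adjusted p = 0.172) for ATP5F1B and 0.17 ± 0.08 (adjusted p = 0.191) for ATP5F1A. The 7 members below 0 had changes of -0.08 to 0.00, the lowest being NDUFB3 (-0.08 ± 0.08) and NDUFV3 (-0.06 ± 0.07), a small subunit of the flavoprotein arm whose footprints were 85.3, 83.5 and 77.9 CPM in Nterm/Nterm and 80.6, 89.3 and 87.1 CPM in wt/wt, with overlap.

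**Figure D4:**
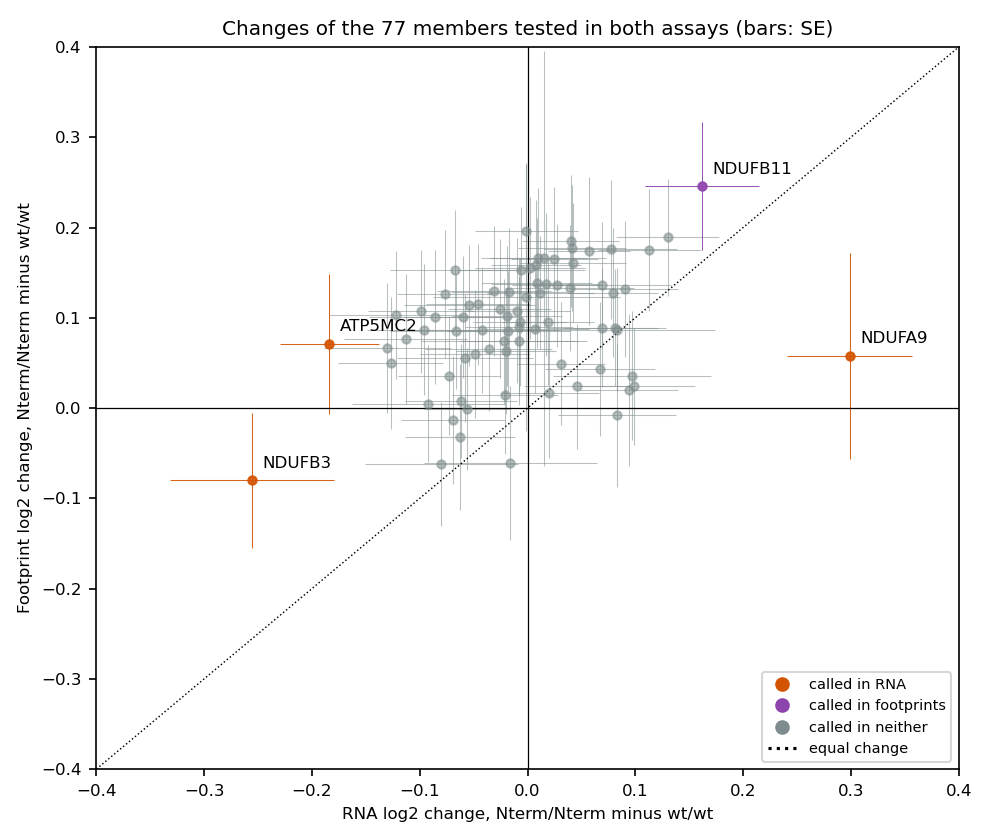
RNA log2 change (x axis) against footprint log2 change (y axis), Nterm/Nterm minus wt/wt, for the 77 members tested in both assays, with SE bars and the line of equal change. Points gather near 0 on the x axis and above 0 on the y axis, and 68 of 77 lie above the line.

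Footprint changes exceeded RNA changes in 68 of the 77 members, against 53.3% of all transcripts. Across these members the RNA and footprint changes had a Pearson r of 0.35 and a Spearman rho of 0.35, a description over genes that share the same 12 libraries. The change of translational efficiency, the interaction term of the model over both assays, had a median of 0.11, against 0.01 for all transcripts, and 68 of 78 members (87.2%) lay above 0, against 53.7% of all. Without wt/wt footprint replicate 2 the members' median was 0.06, against 0.01 for all transcripts, and with TMM scaling over all 12 libraries together it was 0.07, against -0.03 for all transcripts. By complex its median was 0.10 for complex I, 0.10 for complex III, 0.12 for complex IV and 0.13 for complex V.

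No member passed the test of this interaction, and 0.0203% of the 14786 transcripts tested did, 3 in all. Under limma-voom 0 members were called too. DESeq2 called 38 transcripts in all (0.257%) and 0 members. It gave no adjusted p for ATP5MC2, NDUFS3, NDUFA9 and NDUFA10, which therefore could not be called by it. At an unadjusted p under 0.05, edgeR had 7 members, all higher in Nterm/Nterm, beside 2.89% of all transcripts in this direction. In either direction, DESeq2 had 6 such members and limma-voom 7. The 7 by edgeR were ATP5MC2, NDUFS3, ATP5PF, COX4I1, NDUFA3, NDUFA11 and ATP5ME, with log2 changes of 0.20 to 0.26. The ratios of the genotypes did not overlap for 21 members higher in Nterm/Nterm, where 7.74% of transcripts were separated so, and for 1 lower, NDUFA9, where 5.32% were. These counts rest on dividing libraries of the same number, which were not taken as pairs.

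The members with the smallest p in each direction show what lay behind these values. ATP5MC2 had ratios of 2.34, 2.28 and 2.09 in Nterm/Nterm and 1.71, 1.75 and 2.17 in wt/wt, which overlapped through wt/wt replicate 3 (log2 change 0.26 ± 0.10, unadjusted p = 0.0162, adjusted p = 1, edgeR). NDUFS3, a core subunit of complex I, had 2.97, 3.12 and 2.87 in Nterm/Nterm and 2.53, 2.54 and 2.59 in wt/wt, without overlap (0.22 ± 0.09, unadjusted p = 0.0169, adjusted p = 1, edgeR). In the other direction, NDUFA9 had a change of -0.24 ± 0.11 (unadjusted p = 0.0511, adjusted p = 1, edgeR). Its RNA was called higher in Nterm/Nterm, and its footprint change did not pass the test. NDUFA10, an accessory subunit of the membrane arm, had ratios of 1.20, 1.32 and 1.17 in Nterm/Nterm and 1.29, 1.28 and 1.29 in wt/wt, which overlapped (-0.07 ± 0.08, adjusted p = 1, edgeR).

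In the authors' deposited table, 6 of the 78 members had an unadjusted p under 0.05, all with a ratio of Nterm/Nterm to wt/wt above 1, where 2.36% of its 10932 transcripts had such a p and ratio. These were NDUFA6, NDUFB2, NDUFS3, UQCRH, UQCR10 and ATP5ME, with ratios of 1.10 to 1.16 in the authors' deposited table. Of the members, 67 had a deposited ratio above 1, against 50.2% of all transcripts in the authors' deposited table, and their median was 1.07, against 1 for all. NDUFS3 and ATP5ME were in both the edgeR list of 7 and this list of 6.

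Each library was also set against the mean of the 6 libraries of its assay. In footprints the median deviation of the members was 0.10, 0.04 and 0.02 in Nterm/Nterm and -0.04, -0.12 and 0.02 in wt/wt on the log2 scale, so wt/wt replicate 2 lay lowest and wt/wt replicate 3 lay among the Nterm/Nterm libraries. Leaving out wt/wt footprint replicate 2 gave a median footprint change of 0.05, and leaving out replicate 3 gave 0.13. The 15 neuron markers, from MAP2 and TUBB3 to SYT1, moved alike in footprints, with median deviations of 0.16, 0.08 and 0.11 in Nterm/Nterm and -0.09, -0.26 and 0.02 in wt/wt. In RNA the members deviated by 0.03, -0.05 and 0.02 in Nterm/Nterm and 0.02, -0.01 and 0.02 in wt/wt, without the separation that the neuron markers showed there, at 0.08, 0.02 and 0.15 in Nterm/Nterm and -0.10, -0.13 and -0.02 in wt/wt.

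**Figure D5:**
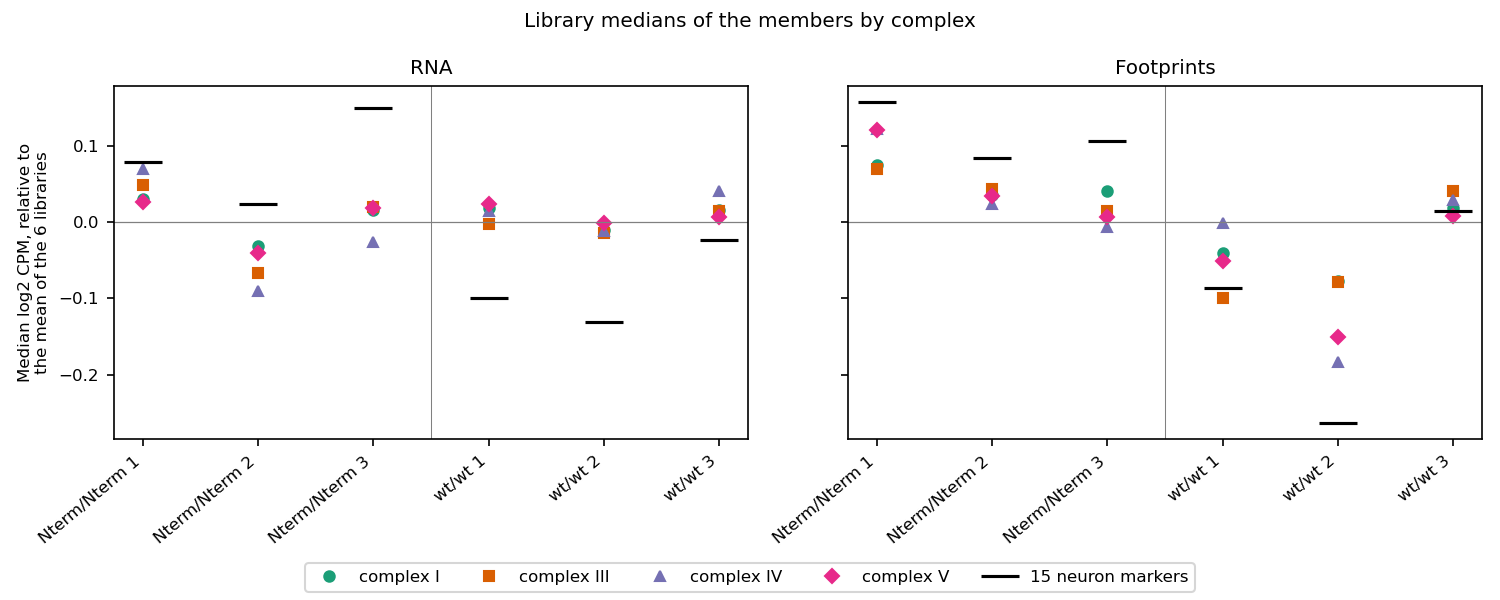
Median log2 CPM of the members of each complex in each library, relative to the mean of the 6 libraries of the assay, for RNA (left) and footprints (right), with the 15 neuron markers as black bars; Nterm/Nterm libraries stand left of wt/wt. In footprints, wt/wt replicate 2 is lowest for complexes I, IV and V and for the neuron markers, and wt/wt replicate 3 lies near 0.

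Summed RNA levels of neuron, mesenchymal and neural progenitor markers differed between the genotypes. All 15 neuron markers were measured, summing to 18510 to 20120 RNA CPM in Nterm/Nterm and 16210 to 17340 in wt/wt, and 9 were called higher in Nterm/Nterm and 0 lower. In footprints they summed to 10410 to 10730 CPM in Nterm/Nterm and 7732 to 9856 in wt/wt, with 4 called higher. Of 10 mesenchymal markers 6 were measured, summing to 1783 to 2219 RNA CPM in Nterm/Nterm and 2591 to 3105 in wt/wt, with 5 called lower and 1 higher. Of 8 neural progenitor markers 6 were measured, at 889.6 to 1038 RNA CPM in Nterm/Nterm and 1151 to 1242 in wt/wt, with 5 called lower. In footprints the sums of these last 2 lists overlapped. Mesenchymal markers summed to 2391 to 3155 CPM in Nterm/Nterm and 3080 to 3638 in wt/wt, with 3 called lower. Neural progenitor markers summed to 1328 to 1564 CPM in Nterm/Nterm and 1351 to 1687 in wt/wt, with 4 called lower. Of the astrocyte, pluripotent and cycling markers, 2, 2 and 4 were measured, with 1, 2 and 3 called lower in RNA. Of the 5 oligodendrocyte markers, 0 were among the named transcripts. The part of these marker differences in the footprint values of the members was not tested.

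For related genes outside the rule, calls stand beside the shares of all transcripts given above, 7.25% higher and 10.6% lower in RNA and 4.36% higher and 8.91% lower in footprints. The 4 subunits of complex II, which feeds electrons from succinate into the chain, had 0 calls in RNA and 0 in footprints, with median changes of -0.02 in RNA and 0.01 in footprints. Of 14 complex I assembly factors, NDUFAF4 was called higher in RNA (0.27 ± 0.08, adjusted p = 0.0302) and NDUFAF3 lower (-0.29 ± 0.08, adjusted p = 0.0297), and 0 were called in footprints. Of 19 complex IV assembly factors, COA4 was lower in RNA, at 15.6 ± 1.3 CPM in Nterm/Nterm and 22.6 ± 1.1 in wt/wt (SD, n = 3; edgeR adjusted p = 0.00161), and in footprints, at 19.3 ± 0.1 CPM in Nterm/Nterm and 27.2 ± 0.6 in wt/wt (adjusted p = 0.000998). COX20, which helps the mitochondrially encoded COX2 subunit into complex IV, was higher in RNA (0.29 ± 0.05, adjusted p = 0.0021), and PET100 was higher in footprints (0.26 ± 0.08, adjusted p = 0.0317). Of 12 enzymes of the citric acid cycle, OGDH was lower in RNA (-0.17 ± 0.04, adjusted p = 0.0135). Of 16 import genes, TIMM44, which tethers the import motor, was higher in footprints (0.25 ± 0.08, adjusted p = 0.0329). The import genes had median changes of -0.02 in RNA, 0.09 in footprints and 0.12 in translational efficiency, close to those of the members. The medians of the citric acid cycle enzymes were 0.03 in RNA, 0.05 in footprints and 0.03 in translational efficiency. Of 8 regulators, among them NRF1, GABPA and TFAM, 0 were called in any of the 3 comparisons. The 13 subunits encoded in mitochondrial DNA were not among the named transcripts and were not analysed here.

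The ribosomal proteins of mitochondria and cytosol give 2 further points of reference. The 78 mitochondrial ribosomal proteins, which translate the subunits encoded in mitochondrial DNA, had a ratio like that of the members, with a median of 1.91 in Nterm/Nterm and 1.90 in wt/wt, and median changes of -0.02 in RNA, 0.02 in footprints and 0.05 in translational efficiency. The 79 cytosolic ribosomal proteins had a lower ratio, with a median of 0.783 in Nterm/Nterm and 0.659 in wt/wt. Their median footprint change, 0.10, was that of the members, while their median RNA change was -0.17, with 49 called lower, and their median change of translational efficiency was 0.26. The difference between these lists and the members was not tested.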

How the data were processed

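The authors deposited raw counts for 19972 transcripts in 12 libraries, and a table of mean footprint to RNA ratios with unadjusted p-values, per the file headers. The submitters' processing notes name Salmon 1.4.0, Bowtie2 2.3.4.3, UMI-tools 1.0.1, cutadapt 2.4, limma and edgeR, with build GRCh37 and with no role for any of them. Library totals are given with the data above.

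The deposited counts were analysed in R 4.3.3 with edgeR 4.0.16 (filterByExpr, TMM, quasi-likelihood F test, two-sided, Benjamini-Hochberg over all transcripts tested, threshold 0.05). RNA and footprints were fitted apart, and translational efficiency as the interaction between both factors over the 12 libraries, with TMM set within each assay, so each change is relative to the rest of the table. A positive log2 change means higher in Nterm/Nterm, and SE is the size of the change over the square root of F. Levels and ratios come from the interaction fit's scaling, and library deviations use log2(CPM + 0.5). The scripts were tested on simulated data. DESeq2 1.42.0 and limma 3.58.1 were alternatives.

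Members, lists and tests were chosen with earlier results of these data known. Members past the threshold are named (at most 5 a direction), otherwise the 2 with the smallest p, and the 4 highest and 4 lowest ratios in wt/wt, with the paralog sets. All other names were chosen after their values were seen. Same-numbered RNA libraries of the genotypes deviated together, with correlations of 0.118, 0.113 and 0.188, so the numbers were taken to pair the RNA samples. The main RNA fit and the fits without 1 library had no block for this pairing, and the blocked fit is given beside them. For 1 of the 78 members no value of its own is reported here, and the counts and medians include it.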

Additional observations from a re-analysis of the deposited data

How the results depend on the processing

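Results kept their direction and call under DESeq2, limma-voom, other size factors, library totals, TMM over all 12 libraries, no filter, a filter of at least 1 CPM in every library and the deposited ratios, except as given here. In RNA, 5 members were called (2 higher, 3 lower) with DESeq2 size factors in edgeR, with library totals and with the 1 CPM filter, and 8 with the replicate block, in place of 4. Leaving out 1 library gave 1 to 5 members called in RNA, with 841 to 2851 transcripts called in all, and 0 to 5 in footprints, with 954 to 2045 in all. It gave median changes of translational efficiency of 0.062 to 0.144. The numbers were not taken to pair footprints of the genotypes (correlations of 0.0455, 0.092 and 0.211). Those of footprints with RNA were 0.108, 0.187 and 0.289 in Nterm/Nterm, each over 0.1, and 0.0375, 0.0531 and 0.142 in wt/wt, of which 2 were not, so they were not taken as pairs. The block changed neither the count of 1 in footprints nor that of 0 in translational efficiency. For translational efficiency DESeq2 gave no adjusted p for ATP5MC2, NDUFS3, NDUFA9 and NDUFA10, so only their direction can be compared there. When groups followed the genotype tag, the 1 footprint call was lower (NDUFB11 at -0.25), the median footprint change was -0.10, that of translational efficiency was -0.085 with 5 members called (1 higher, 4 lower) where 28.1% of all transcripts were, and NDUFB3 (0.08) and NDUFV3 (0.062) in footprints and NDUFS3 (-0.086) in translational efficiency changed sign. These signs follow from the swap itself. The median ratio in the Nterm/Nterm libraries was 2.04, against 1.87 in wt/wt. The fits with coding length and the levels per codon were not run, since no length table was at hand, so RNA and footprint levels are not compared between genes. What can be read of NDUFA7 and UQCR11 is limited by their few footprint counts.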
